A study of Mus musculus with 8 samples.

Results

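Semaphorins are guidance cues, and plexins and neuropilins are the receptors through which most of them act. The genes described here are the 31 mouse genes, of 23278 in the deposited tables, whose symbol begins with Sema followed by a class number from 3 to 7, begins with Plxn followed by a, b, c or d, or is Nrp1 or Nrp2. They comprise 20 semaphorins, 9 plexins and 2 neuropilins, and were selected by symbol. RNA was sequenced in 8 libraries, in 4 groups of 2, all from FVB/N mice on postnatal day 1 and from their lumbar cord. The SMA motor neuron group was taken from the ventral horn of mice of genotype SMN2+/+;SMNΔ7+/+;Smn-/-, a model of spinal muscular atrophy (SMA), in which mouse Smn is lost and human SMN2 and an SMN transgene lacking one exon are carried. The WT motor neuron group came from the same place in mice labelled WT (wild type). The SMA white matter group and the WT white matter group held white matter glia of the same 2 genotypes. Cells were taken by laser-capture microdissection from hematoxylin-stained sections, and the labels name no marker used to choose them, so each library is a mixture of what lay in the cut area. The labels do not say which mice gave which library or whether mice were pooled. By the sex-linked transcripts given below, the 2 libraries of each group came from mice of different sex. The spread behind every p-value therefore holds sex together with any other difference between mice and any technical one, and these cannot be told apart.

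Class 3 semaphorins are secreted, classes 4, 5 and 6 are transmembrane proteins, and Sema7a is held to the membrane by a lipid anchor. Most class 3 semaphorins bind a neuropilin, which passes the signal through a class A plexin, whereas class 4 ligands act mainly through class B plexins and class 6 ligands bind class A plexins directly. Bound plexins act on small GTPases and, through collapsin response mediator proteins and kinases, on the cytoskeleton, and in the spinal cord they are known for steering motor and sensory axons and for acting on oligodendrocytes and their precursors.

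Levels are RPKM, read numbers divided by gene length and by depth. Being per length, they were summed and ranked across genes. The RNA was amplified and the annotation is not known, so shares and rankings between genes are of RPKM and not of molecules. The depth used in that division was 77.5 to 102.8 M reads, and 43.2 to 66.7 M reads were traced to genes. In these libraries 1 read in a gene of 1 kilobase was worth 0.00972 to 0.0129 RPKM. Smn1, the mouse gene lost in SMA mice, was listed at 0 in the 4 SMA libraries and had 6.82 and 2.93 RPKM in WT motor neurons and 5.30 and 14.3 RPKM in WT white matter. The captured tissue was checked against marker lists. Of 20 motor neuron markers, 16 in SMA and 17 in WT passed the test as higher in motor neurons, and none passed as lower. The defining gene Chat had 11.8 and 14.6 RPKM in SMA motor neurons and 25.0 and 13.8 RPKM in WT motor neurons, against 0.905 and 0.00346 RPKM in SMA white matter and 0.180 and 0.0589 RPKM in WT white matter. Markers of spinal interneurons were also higher there, 7 of 10 tested in SMA and 6 of 10 in WT, with 1 lower in each. Summed, the interneuron markers came to 216 to 376 RPKM over the 4 motor neuron libraries, against 12.8 to 39.2 RPKM over the 4 of white matter. Of the defining markers, Slc32a1, the vesicular transporter of inhibitory neurons, was above 0 in every library, and Tlx3 was listed at 0 in all but 1. They moved with the family genes that were higher in motor neurons, and their part in those results was not tested. All 8 tested markers of myelinating oligodendrocytes and all 10 of microglia were lower in motor neurons in both genotypes. In every group replicate 1 had the female transcript Xist at 12.6 to 37.0 RPKM and the Y-linked Ddx3y at 0, whereas replicate 2 had Xist at 0.00203 to 0.0581 RPKM and Ddx3y at 0.628 to 6.37 RPKM. By these transcripts replicate 1 of every group was female and replicate 2 male.

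Most of the family was present in both regions. Of the 31 genes, 23 reached 1 RPKM in every library, and the 29 that did so in 2 libraries or more were tested. The remaining pair, Sema3f and Sema3g, are secreted class 3 ligands. Sema3f, a ligand of Nrp2, had 0.227 and 0.780 RPKM in SMA motor neurons and 1.11 and 0.407 RPKM in WT motor neurons, against 0.161 and 0.160 RPKM in SMA white matter and 0.0950 and 0.978 RPKM in WT white matter. Sema3g reached at most 0.247 RPKM and was listed at 0 in 3 libraries. Summed over the family, the regions were alike in total but not in makeup. All semaphorins together came to 254 to 336 RPKM in the 4 motor neuron libraries and 253 to 390 RPKM in the 4 white matter libraries, and all plexins to 105 to 133 RPKM in motor neurons and 93.7 to 146 RPKM in white matter. Both pairs of ranges overlapped. The 2 neuropilins together had 47.5 to 73.3 RPKM in motor neurons and 10.9 to 16.2 RPKM in white matter, with no overlap.

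The share of each class differed between the regions. Class 3 semaphorins held 16.1 to 30.1% of the summed semaphorin RPKM in motor neurons and 4.45 to 6.81% in white matter. Sema7a alone held 12.7 to 15.8% in motor neurons and 0.515 to 1.17% in white matter. Class 6 went the other way, with 22.6 to 26.1% in motor neurons and 52.2 to 55.2% in white matter. Class 4 held overlapping shares, 19.2 to 31.5% in motor neurons and 24.1 to 31.0% in white matter. Among the plexins, class A held 78.9 to 85.4% in motor neurons and 22.4 to 24.3% in white matter, and class B 8.96 to 16.0% in motor neurons and 65.5 to 69.0% in white matter. The most abundant plexin was Plxna1 in each of the 4 motor neuron libraries and Plxnb3 in each of the 4 white matter libraries. The most abundant semaphorin was Sema3a in both WT motor neuron libraries, Sema3c and Sema7a in one SMA motor neuron library each, and Sema6d in all 4 white matter libraries.

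**Figure D1:**
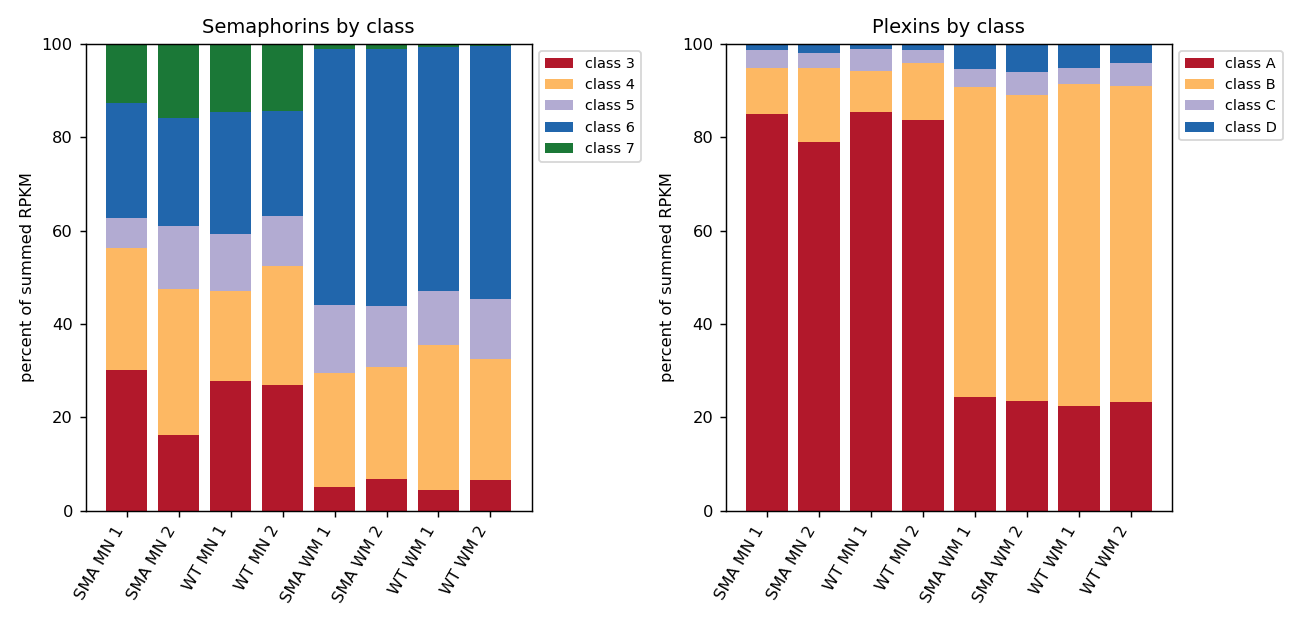
Stacked bars give the percent of summed semaphorin RPKM (left) and summed plexin RPKM (right) held by each class in each library, with MN for motor neurons and WM for white matter and the replicate number after it. Class 6 holds 22.6 to 26.1% of semaphorin RPKM in motor neuron libraries and 52.2 to 55.2% in white matter libraries, and class A plexins hold 78.9 to 85.4% in motor neuron libraries and 22.4 to 24.3% in white matter libraries.

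The promoters of 4 genes with large differences between the regions are shown because those genes stand at opposite ends of the comparison. They were picked by a rule, the 2 largest log2(RPKM + 1) differences in each direction, averaged over both genotypes, among genes that have 1 annotated start and no more than 30 promoter bases inside an annotated exon. Sema3c and Plxnb1, with larger differences than some of them, were left out because all 250 bases of their windows lay in an exon. Each is the 250 bases before the annotated start in the RefSeq table of build GRCm38.p6, 5′ to 3′ on the gene's strand, and capitals mark CG dinucleotides (CpG). It is the sequence of the C57BL/6J reference, not of the FVB/N mice studied. Sema7a (chr9:57939862-57940111, plus strand) and Sema4f (chr6:82939770-82940019, minus strand) were higher in motor neurons, and Plxnb3 (chrX:73756853-73757102, plus strand) and Plxnd1 (chr6:115995006-115995255, minus strand) were lower.
Sema7a: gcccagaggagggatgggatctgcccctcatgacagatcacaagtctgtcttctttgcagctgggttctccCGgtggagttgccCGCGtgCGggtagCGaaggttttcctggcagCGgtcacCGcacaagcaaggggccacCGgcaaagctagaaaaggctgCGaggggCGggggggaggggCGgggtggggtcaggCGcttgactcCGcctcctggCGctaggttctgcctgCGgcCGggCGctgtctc
Sema4f: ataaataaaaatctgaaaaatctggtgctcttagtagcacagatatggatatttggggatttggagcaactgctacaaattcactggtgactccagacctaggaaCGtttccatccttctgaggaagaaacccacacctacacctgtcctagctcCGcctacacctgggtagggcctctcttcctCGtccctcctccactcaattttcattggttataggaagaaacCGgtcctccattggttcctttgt
Plxnb3: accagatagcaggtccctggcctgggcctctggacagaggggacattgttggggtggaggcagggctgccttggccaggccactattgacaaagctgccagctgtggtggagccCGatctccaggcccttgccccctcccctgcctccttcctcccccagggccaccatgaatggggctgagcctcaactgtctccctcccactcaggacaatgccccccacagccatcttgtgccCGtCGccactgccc
Plxnd1: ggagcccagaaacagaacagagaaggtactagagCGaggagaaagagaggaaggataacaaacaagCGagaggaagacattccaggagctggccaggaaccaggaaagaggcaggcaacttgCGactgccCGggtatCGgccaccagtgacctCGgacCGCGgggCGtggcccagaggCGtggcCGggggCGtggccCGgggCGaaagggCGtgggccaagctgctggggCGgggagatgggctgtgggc

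The capitals differ in number within both pairs. Sema7a had 17 CpG and Sema4f 4, and Plxnd1 had 16 and Plxnb3 3. Of all 32851 windows in the table, 78.3% had as many CpG as Sema7a or fewer, 76.5% as Plxnd1, 44.4% as Sema4f and 37.8% as Plxnb3. Over the family, 26 of the 31 genes had an entry, with 37 windows between them. Their median was 13 CpG, and the median of all windows was 6. The letters GGGCGG, a GC box, were found on either strand in 73.0% of the family's windows and 32.7% of all windows. The SOX site letters ACAAAG were in 13.5% of the family's windows and 16.5% of all, and the E-box letters CAGCTG in 16.2% of the family's windows and 13.0% of all. None of the 37 windows held TATAAA or TAATTA, which were in 12.4% (TATAAA) and 4.84% (TAATTA) of all windows. The GC box contains a CG, so its share and the CpG number are not separate observations. Beyond that none of these motifs contains another, and windows of 1 gene can share bases. These are counts of letters in a fixed window and say nothing of binding.

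Motor neurons were then compared with white matter within each genotype, which asks which captured area held more RNA of each ligand and receptor. Differences are on the log2(RPKM + 1) scale, which understates the change of genes with low values, and are given with the standard error (SE) and with the Benjamini-Hochberg adjusted p of limma over 13948 genes. In SMA, 11 of the 29 tested family genes were higher in motor neurons and 9 lower, against 13.6% and 17.2% of all tested genes. In WT, 12 were higher and 9 lower, against 18.6% and 9.85% of all tested genes. A total of 10 passed as higher and 9 as lower in both genotypes, against 12% and 8.5% of all tested genes. Without regard to genotype, all 4 motor neuron libraries lay above all 4 white matter libraries for 12 genes and below them for 9, against 21.5% and 20.7% of all tested genes. The median difference over the family was 0.48 in SMA and 0.40 in WT, and over all tested genes −0.24 in SMA and 0.08 in WT. In bulk tissue, fewer cells of a type and less RNA per cell cannot be told apart.

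**Figure D2:**
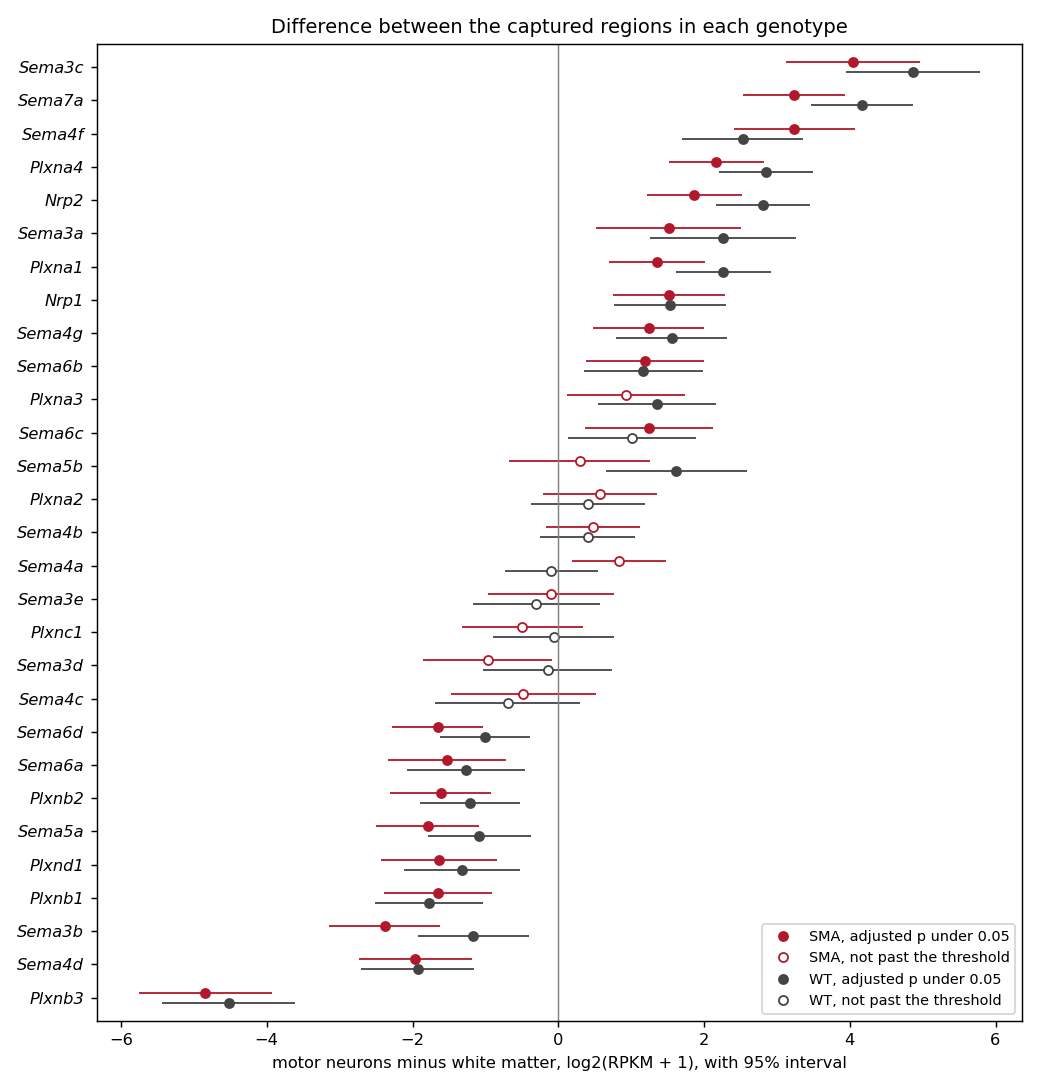
Each row is 1 of the 29 tested genes, ordered by the mean difference over both genotypes, and the x axis is motor neurons minus white matter in log2(RPKM + 1). Points are the limma estimates for SMA (red) and WT (grey) with 95% intervals, filled where the adjusted p was under 0.05. The semaphorin and plexin classes are interleaved, with Sema3c at 4.87 in WT at one end and Plxnb3 at −4.52 at the other.

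The secreted ligands of class 3 did not behave as a block. Sema3a, which collapses growth cones through Nrp1 and class A plexins, had 43.0 and 14.9 RPKM in SMA motor neurons and 51.1 and 44.4 RPKM in WT motor neurons, against 7.77 and 8.79 RPKM in SMA white matter and 7.13 and 11.6 RPKM in WT white matter. One SMA motor neuron library stood well below the other 3 motor neuron libraries, but above all 4 of white matter. The difference was 1.51 ± 0.45 in SMA (SE, adjusted p = 0.0293) and 2.26 ± 0.45 in WT (adjusted p = 0.00468). The SMA call was kept in 9 of 16 alternatives. Sema3c, a secreted ligand that can bind either neuropilin, was much more abundant in motor neurons. It had 56.4 and 23.7 RPKM in SMA motor neurons and 37.9 and 33.3 RPKM in WT motor neurons, against 1.03 and 1.56 RPKM in SMA white matter and 0.190 and 0.305 RPKM in WT white matter. The mean in motor neurons was 30.9-fold that in white matter in SMA and 144-fold in WT, and the fitted difference was 4.04 ± 0.41 in SMA (adjusted p = 0.000194) and 4.87 ± 0.41 in WT (adjusted p = 5.51e-05).

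Sema3b, also secreted, had the opposite distribution. It was near the floor in motor neurons, with 0.563 and 0.334 RPKM in the SMA libraries and 0.555 and 0.125 RPKM in the WT libraries, against 6.56 and 6.49 RPKM in SMA white matter and 2.16 and 1.79 RPKM in WT white matter. The difference was −2.38 ± 0.34 in SMA (adjusted p = 0.00107) and −1.17 ± 0.34 in WT (adjusted p = 0.0297), and the WT call was kept in 11 of 16 alternatives. Sema3d and Sema3e, the second of which binds Plxnd1 without a neuropilin, stayed at low levels everywhere. Across the 8 libraries Sema3d was between 0.302 and 2.40 RPKM and Sema3e between 0.445 and 1.93 RPKM, and neither passed the test in either genotype.

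Sema7a, which binds Plxnc1 and integrins containing the beta 1 chain, was also far more abundant in motor neurons. It had 42.6 and 40.3 RPKM in SMA motor neurons and 48.9 and 42.4 RPKM in WT motor neurons, against 4.55 and 2.67 RPKM in SMA white matter and 1.89 and 1.30 RPKM in WT white matter. The 4 motor neuron values lay within a narrow band, far above the highest white matter value. The difference was 3.23 ± 0.31 in SMA (adjusted p = 0.000155) and 4.17 ± 0.31 in WT (adjusted p = 3.07e-05). Together Sema3a, Sema3c and Sema7a made up 31.0 to 42.2% of semaphorin RPKM in motor neurons and 3.20 to 5.22% in white matter.

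Among the transmembrane ligands of class 4, Sema4f and Sema4g were higher in motor neurons and Sema4d lower. Sema4f, whose cytoplasmic end binds a postsynaptic scaffold protein, had 11.4 and 9.10 RPKM in SMA motor neurons and 7.62 and 13.1 RPKM in WT motor neurons, against 0.227 and 0.146 RPKM in SMA white matter and 0.648 and 1.21 RPKM in WT white matter. Motor neurons held it at 55.1-fold the white matter mean in SMA and 11.2-fold in WT, with a difference of 3.24 ± 0.37 in SMA (adjusted p = 0.000361) and 2.53 ± 0.37 in WT (adjusted p = 0.000996). Sema4g was abundant in motor neurons, at 25.0 and 27.5 RPKM in SMA and 21.4 and 24.8 RPKM in WT, and present in white matter, at 13.6 and 8.12 RPKM in SMA and 9.26 and 5.51 RPKM in WT. Its difference was smaller than that of Sema4f, at 1.24 ± 0.34 in SMA (adjusted p = 0.0215) and 1.56 ± 0.34 in WT (adjusted p = 0.00765).

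Sema4d, the ligand of Plxnb1 and a product of oligodendrocytes, had 9.24 and 11.0 RPKM in SMA motor neurons and 11.0 and 10.2 RPKM in WT motor neurons, against 55.6 and 31.9 RPKM in SMA white matter and 55.5 and 33.5 RPKM in WT white matter. Within white matter the first library of each genotype held more of it than the second, and the lowest white matter value was still above every motor neuron value. The difference was −1.96 ± 0.35 in SMA (adjusted p = 0.00296) and −1.93 ± 0.35 in WT (adjusted p = 0.00285). The summed markers of myelinating oligodendrocytes moved with it, at 40.9 to 115 RPKM in motor neurons and 1803 to 4630 RPKM in white matter, with the first white matter library of each genotype above the second, and their part in the result was not tested. The other class 4 genes did not pass the test in either genotype. Sema4b ranged from 9.81 to 19.6 RPKM over the 8 libraries, and Sema4c, a ligand of Plxnb2, from 1.30 to 5.29 RPKM.

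The transmembrane class 5 ligands carry thrombospondin repeats, and their pair of genes split between the regions. Sema5a had 9.69 and 6.60 RPKM in SMA motor neurons and 12.3 and 10.7 RPKM in WT motor neurons, against 38.2 and 23.8 RPKM in SMA white matter and 24.6 and 26.4 RPKM in WT white matter. It was lower in motor neurons by log2 differences of −1.79 ± 0.32 in SMA (adjusted p = 0.00300) and −1.08 ± 0.32 in WT (adjusted p = 0.0296). Sema5b had 11.7 and 27.7 RPKM in SMA motor neurons and 28.5 and 20.5 RPKM in WT motor neurons, against 18.6 and 11.4 RPKM in SMA white matter and 8.93 and 5.74 RPKM in WT white matter. The WT regions were separate, and the SMA regions overlapped. Sema5b was higher in WT motor neurons, by 1.62 ± 0.43 (adjusted p = 0.0200), and did not pass in SMA, at 0.30 ± 0.43 (adjusted p = 0.628). The difference between the genotypes in this contrast was −1.33 ± 0.61 (adjusted p = 0.883) and did not pass.

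Class 6 ligands bind class A plexins without a neuropilin, and 2 of them, Sema6a and Sema6d, were the most abundant semaphorins of white matter. Sema6d, a ligand of Plxna1, had 41.0 and 25.4 RPKM in SMA motor neurons and 46.0 and 36.0 RPKM in WT motor neurons, against 111 and 97.2 RPKM in SMA white matter and 79.1 and 86.5 RPKM in WT white matter. Sema6a, a ligand of Plxna2 and Plxna4, had 27.1 and 19.9 RPKM in SMA motor neurons and 26.7 and 18.6 RPKM in WT motor neurons, against 96.4 and 49.4 RPKM in SMA white matter and 64.7 and 46.9 RPKM in WT white matter. Both genes were also present in motor neurons, and were the only family members at 10 RPKM or more in all 8 libraries. Sema6d was lower in motor neurons by −1.66 ± 0.28 in SMA (adjusted p = 0.00226) and −1.01 ± 0.28 in WT (adjusted p = 0.0229). Sema6a was lower by −1.53 ± 0.36 in SMA (adjusted p = 0.0116) and −1.27 ± 0.36 in WT (adjusted p = 0.0265).

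Sema6b and Sema6c were present at lower levels and lay the other way. For Sema6b, a ligand of Plxna4, SMA motor neurons had 8.46 and 9.65 RPKM and WT motor neurons 9.99 and 6.92 RPKM, against 4.46 and 2.54 RPKM in SMA white matter and 3.83 and 2.56 RPKM in WT white matter. Sema6b was higher in motor neurons by 1.19 ± 0.36 in SMA (adjusted p = 0.0334) and 1.17 ± 0.36 in WT (adjusted p = 0.0376), and each call was kept in 9 of 16 alternatives. For Sema6c, SMA motor neurons had 6.36 and 3.72 RPKM and WT motor neurons 4.62 and 5.54 RPKM, against 1.45 and 1.53 RPKM in SMA white matter and 2.93 and 1.28 RPKM in WT white matter. It passed in SMA, at 1.24 ± 0.39 (adjusted p = 0.0380, kept in 9 of 16 alternatives), and not in WT, at 1.02 ± 0.39 (adjusted p = 0.0815). Sema4d, Sema6a and Sema6d together made up 21.9 to 25.0% of semaphorin RPKM in motor neurons and 65.4 to 69.1% in white matter.

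**Figure D3:**
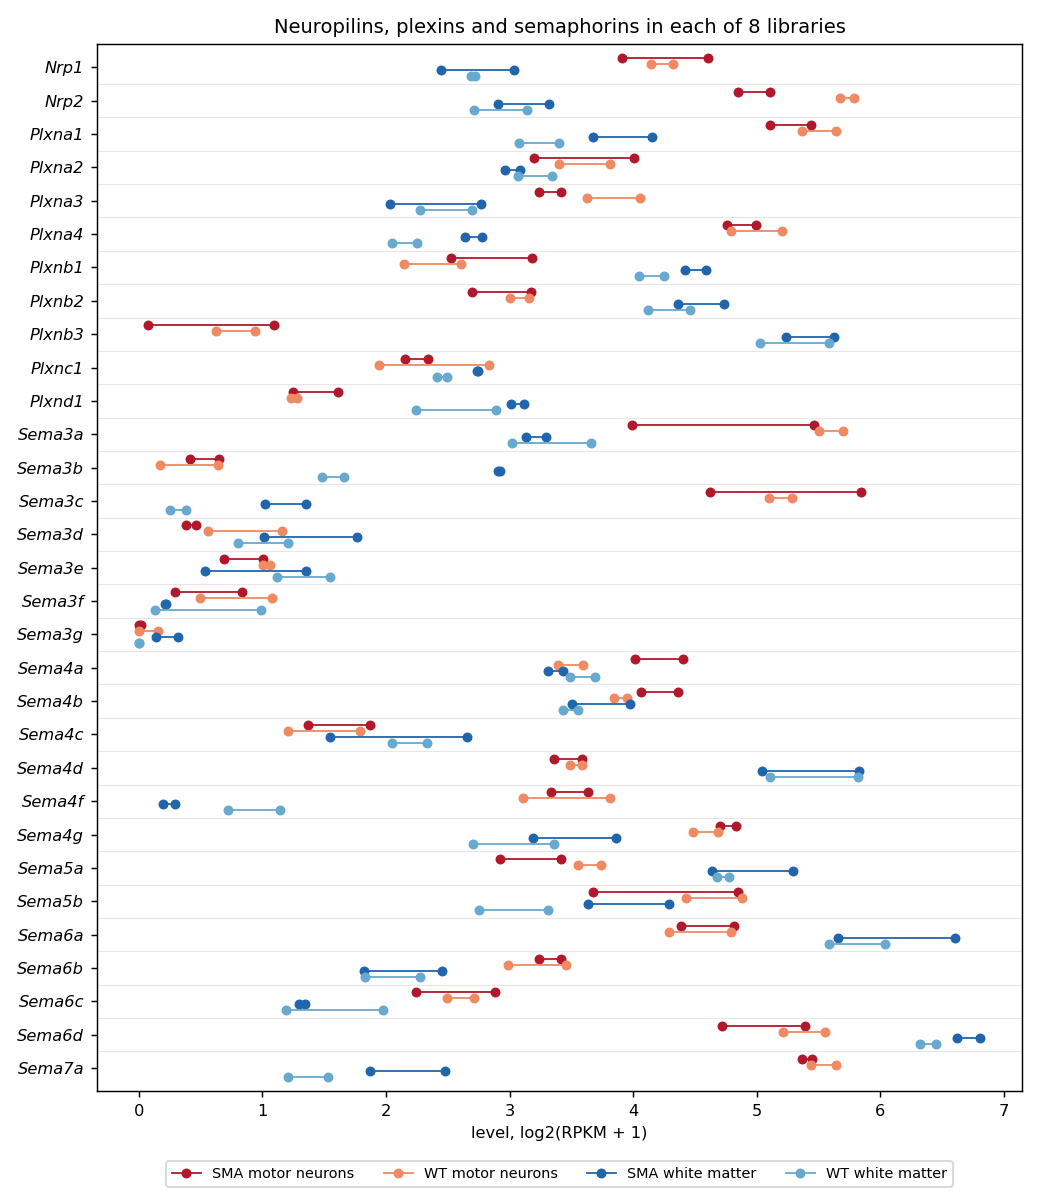
Each row is 1 of the 31 genes and each point 1 library, on an x axis of log2(RPKM + 1), and a line joins the 2 libraries of a group. Red and orange points (SMA and WT motor neurons) stand right of dark and light blue points (SMA and WT white matter) for Sema7a, Sema3c and Plxna4, and left of them for Plxnb3, Sema4d and Plxnb1.

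The neuropilins, co-receptors for class 3 semaphorins and for vascular endothelial growth factors (VEGF), were both higher in motor neurons. Nrp2, which binds Sema3f and Sema3c, had 27.8 and 33.4 RPKM in SMA motor neurons and 54.4 and 50.1 RPKM in WT motor neurons, against 8.97 and 6.48 RPKM in SMA white matter and 5.55 and 7.80 RPKM in WT white matter. Nrp1, the binding receptor for Sema3a, had 23.3 and 14.0 RPKM in SMA motor neurons and 19.0 and 16.7 RPKM in WT motor neurons, against 7.18 and 4.45 RPKM in SMA white matter and 5.44 and 5.60 RPKM in WT white matter. For both genes every motor neuron library exceeded every white matter library. The difference of Nrp2 was 1.87 ± 0.29 in SMA (adjusted p = 0.00158) and 2.81 ± 0.29 in WT (adjusted p = 0.000157), and that of Nrp1 1.52 ± 0.34 in SMA (adjusted p = 0.00952) and 1.53 ± 0.34 in WT (adjusted p = 0.00893). The WT call of Nrp1 was lost, with adjusted p of up to 0.0757, whenever 1 of the 4 WT libraries was left out.

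Of the class A plexins, which carry the signal of class 3 and class 6 ligands, Plxna1 and Plxna4 were higher in motor neurons in both genotypes. Plxna4 had 30.8 and 26.1 RPKM in SMA motor neurons and 36.0 and 26.7 RPKM in WT motor neurons, against 5.23 and 5.85 RPKM in SMA white matter and 3.75 and 3.14 RPKM in WT white matter. Its difference was 2.17 ± 0.29 in SMA (adjusted p = 0.000756) and 2.85 ± 0.29 in WT (adjusted p = 0.000145). Plxna1 had 33.4 and 42.4 RPKM in SMA motor neurons and 48.9 and 40.2 RPKM in WT motor neurons, against 16.8 and 11.8 RPKM in SMA white matter and 9.58 and 7.44 RPKM in WT white matter. The difference of Plxna1 was 1.35 ± 0.29 in SMA (adjusted p = 0.00763) and 2.26 ± 0.29 in WT (adjusted p = 0.000494). It lost the SMA call, at an adjusted p of 0.0630, without the second SMA white matter library.

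The other class A plexins were less separated. Plxna3, a receptor component for Sema3f, had 9.67 and 8.43 RPKM in SMA motor neurons and 15.6 and 11.4 RPKM in WT motor neurons, against 5.83 and 3.09 RPKM in SMA white matter and 5.46 and 3.84 RPKM in WT white matter. The regions did not overlap, but only the WT difference passed, at 1.36 ± 0.36 (adjusted p = 0.0198), while that in SMA was 0.92 ± 0.36 (adjusted p = 0.0786) and passed in 3 of 16 alternatives. Plxna2, a receptor of Sema6a, had 15.0 and 8.17 RPKM in SMA motor neurons and 13.1 and 9.57 RPKM in WT motor neurons, against 7.48 and 6.82 RPKM in SMA white matter and 9.12 and 7.38 RPKM in WT white matter. The ranges overlapped, and its 95% interval in WT ran from −0.38 to 1.19 on the log2 scale.

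All 3 class B plexins were lower in motor neurons in both genotypes. Plxnb3, a receptor of Sema5a, was almost confined to white matter among these libraries, with 0.0529 and 1.14 RPKM in SMA motor neurons and 0.545 and 0.917 RPKM in WT motor neurons, against 48.4 and 36.6 RPKM in SMA white matter and 46.9 and 31.6 RPKM in WT white matter. Its mean over motor neuron libraries was 61.7-fold lower than over white matter libraries. The fitted difference was −4.84 ± 0.41 in SMA (adjusted p = 8.36e-05) and −4.52 ± 0.41 in WT (adjusted p = 7.63e-05). The lowest library held 26 recovered reads of Plxnb3 and the highest 28180. Plxnb1, the receptor of Sema4d, had 4.77 and 8.07 RPKM in SMA motor neurons and 3.44 and 5.08 RPKM in WT motor neurons, against 23.1 and 20.4 RPKM in SMA white matter and 18.0 and 15.6 RPKM in WT white matter. Plxnb2, a receptor of Sema4c and Sema4d, had 5.48 and 8.02 RPKM in SMA motor neurons and 7.94 and 7.01 RPKM in WT motor neurons, against 25.6 and 19.6 RPKM in SMA white matter and 21.0 and 16.4 RPKM in WT white matter. Neither pair of ranges overlapped. Plxnb1 differed by −1.65 ± 0.33 in SMA (adjusted p = 0.00552) and −1.77 ± 0.33 in WT (adjusted p = 0.00352), and Plxnb2 by −1.61 ± 0.31 in SMA (adjusted p = 0.00438) and −1.21 ± 0.31 in WT (adjusted p = 0.0164).

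The single plexins of classes C and D differed from each other. Plxnd1, the receptor of Sema3e and best known from blood vessels, had 1.37 and 2.05 RPKM in SMA motor neurons and 1.42 and 1.34 RPKM in WT motor neurons, against 7.68 and 7.09 RPKM in SMA white matter and 6.43 and 3.75 RPKM in WT white matter. It was lower in motor neurons, by −1.64 ± 0.36 in SMA (adjusted p = 0.00790) and −1.32 ± 0.36 in WT (adjusted p = 0.0211). The summed markers of endothelium were 41.0 to 61.3 RPKM in motor neurons and 44.9 to 99.6 RPKM in white matter, with 1 of 10 lower in SMA and 0 of 10 passing in WT, and their part in the result was not tested. Plxnc1, the plexin that binds Sema7a, ranged from 2.84 to 6.14 RPKM over all 8 libraries and did not pass in either genotype.

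Ligands and the receptors that bind them did not all differ in one direction. Sema3a was higher in motor neurons together with Nrp1, Plxna1 and Plxna4. Sema4d with Plxnb1, and Sema5a with Plxnb3, were all lower there. Sema6b and its receptor Plxna4 were both higher. Sema6a and Sema6d were lower in motor neurons while Plxna4 and Plxna1, which bind them, were higher, and Plxna2, the other receptor of Sema6a, did not pass. Sema7a was higher while Plxnc1 did not pass, and Plxnd1 and Plxnb2 were lower while their ligands Sema3e and Sema4c did not pass. Of all genes of the family, 8 passed in both genotypes under every alternative tried: Nrp2, Plxna4, Plxnb1, Plxnb3, Sema3c, Sema4d, Sema4f and Sema7a.

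Leaving out 1 library ended other calls. In WT, leaving out any 1 of the 4 WT libraries ended the calls of Nrp1, Plxna3, Plxnb2, Sema3b, Sema5a, Sema6a, Sema6b and Sema6d, with adjusted p of up to 0.227 (Sema6b). The WT calls of Plxnd1 and Sema5b each ended for 3 of those libraries and that of Sema4g for 2, with adjusted p of up to 0.152 for Plxnd1, 0.143 for Sema5b and 0.0739 for Sema4g. In SMA, the calls of Nrp1 and Sema4g ended without the second SMA white matter library, at adjusted p of up to 0.0778 and 0.150, and those of Plxnd1 and Sema6a without the first, at 0.0559 and 0.0954. The SMA calls of Sema3a, Sema6b and Sema6c ended without either SMA white matter library, without either WT motor neuron library, and without the first (Sema3a and Sema6c) or the second (Sema6b) SMA motor neuron library, with adjusted p of up to 0.133 for Sema3a, 0.203 for Sema6b and 0.145 for Sema6c. Calls were gained by Sema6c in WT without either SMA motor neuron library (adjusted p down to 0.0415) and by Plxna2 (adjusted p = 0.0472) and Sema4a (adjusted p = 0.0274) in SMA without the second one. Each gene kept its direction in the genotype where its call ended or was gained. Sema5b, called in WT, changed sign in SMA, where it was not called, to −0.29 without the second SMA motor neuron library and −0.034 without the second SMA white matter library. With 1 WT library left out, 2015 to 2586 of all genes were called in WT, against 3967 with all libraries.

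Genes that work with these receptors were read from 5 lists of 69 genes, of which 63 were tested. In SMA, 13 (20.6%) were higher in motor neurons and 15 (23.8%) lower, against 13.6% and 17.2% of all tested genes. In WT, 20 (31.7%) were higher and 9 (14.3%) lower, against 18.6% and 9.85% of all tested genes. The counts of single lists are small and are to be read against the same shares. Their median difference was 0.0014 in SMA and 0.54 in WT. Of the 12 tested co-receptors and receptor modulators, 2 were higher and 5 lower in SMA, and 3 higher and 3 lower in WT. L1cam, an adhesion molecule that forms a complex with Nrp1, had 87.9 and 94.7 RPKM in SMA motor neurons and 108 and 91.1 RPKM in WT motor neurons, against 3.80 and 3.63 RPKM in SMA white matter and 4.84 and 1.80 RPKM in WT white matter. The adhesion molecule Cntn2 was higher in motor neurons too, by 3.40 ± 0.35 in SMA (adjusted p = 0.000195) and 3.72 ± 0.35 in WT (adjusted p = 9.15e-05). Trem2 and Tyrobp, microglial partners of Plxna1 in the Sema6d receptor, were lower in motor neurons, as was the L1 relative Chl1. Tyrobp had 17.5 and 14.2 RPKM in SMA motor neurons and 6.77 and 7.34 RPKM in WT motor neurons, against 81.3 and 111 RPKM in SMA white matter and 62.6 and 48.0 RPKM in WT white matter. Trem2 and Tyrobp are also among the microglial markers used here.

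Downstream of the receptors, the collapsin response mediator proteins and other cytosolic effectors were mostly higher in motor neurons where they passed. Of 11 tested, 4 were higher and 1 lower in SMA, and 5 higher and 0 lower in WT. Crmp1, which relays the Sema3a signal to the cytoskeleton, had 172 and 182 RPKM in SMA motor neurons and 186 and 180.5 RPKM in WT motor neurons, against 29.0 and 26.5 RPKM in SMA white matter and 19.0 and 15.6 RPKM in WT white matter. Its relatives Dpysl3 and Dpysl5 passed in both genotypes, by 1.26 ± 0.21 and 1.89 ± 0.34 in SMA and 1.72 ± 0.21 and 2.65 ± 0.34 in WT. Of 16 kinases and cofilin regulators, 4 were higher and 3 lower in SMA, and 7 higher and 4 lower in WT. Cdk5r1, the neuronal activator of Cdk5, was higher by 3.01 ± 0.32 in SMA (adjusted p = 0.000241) and 3.14 ± 0.32 in WT (adjusted p = 0.000143). Limk1, which phosphorylates cofilin, and Gsk3a were also higher, whereas Fyn, a kinase of oligodendrocytes and neurons, Ssh3, a cofilin phosphatase of the slingshot family, and Pak2 were lower. Fyn had 35.3 and 30.8 RPKM in SMA motor neurons and 35.9 and 38.9 RPKM in WT motor neurons, against 107 and 143 RPKM in SMA white matter and 88.6 and 90.6 RPKM in WT white matter.

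The small GTPases and their regulators split by member. Of 18 tested, 3 were higher and 6 lower in SMA, and 4 higher and 2 lower in WT. The higher ones were 16.7% in SMA and 22.2% in WT, near the shares of all tested genes. Rac3 was higher in motor neurons, by 2.81 ± 0.31 in SMA (adjusted p = 0.000320) and 3.42 ± 0.31 in WT (adjusted p = 8.73e-05), and so was Arhgef11, an exchange factor that binds class B plexins. Rac2, the Rac of blood-derived cells, was lower, by −2.29 ± 0.38 in SMA (adjusted p = 0.00225) and −1.98 ± 0.38 in WT (adjusted p = 0.00414), and so was Rap1a, a GTPase of the Rap type that plexins inactivate. Of the 6 tested VEGF ligands and receptors, which share the neuropilins, none passed in SMA and 1 was higher in WT.

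SMA was then compared with WT within each region, which asks whether the family is altered in the disease model at this age. None of the 29 tested family genes passed in motor neurons, in white matter, over both regions, or in the difference between regions, and neither did any other gene (0% of 13948 in each). The smallest adjusted p of a family gene was 1 in motor neurons, 0.727 in white matter, 0.761 over both and 0.883 for the difference. With voom on the recovered reads, 0 family genes passed in each of the 4 as well. At an unadjusted p under 0.05, 2 family genes were found in motor neurons (4.37% of all tested genes), 3 in white matter (6.31%), 1 over both regions (5.99%) and 3 for the difference (4.97%). The 1 over both regions was Sema3b, at 0.74 ± 0.24 (SE, unadjusted p = 0.0128 in limma). The 3 for the difference were Sema3b, at −1.22 ± 0.48 (unadjusted p = 0.0310), and Nrp2 and Sema4a, given below. The 95% intervals in motor neurons reached from −1.88 for Sema3a to 1.36 for Sema4a, and in white matter from −1.52 for Sema4f to 2.11 for Sema3b, so differences of those sizes lay within the error of 2 libraries a group.

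**Figure D4:**
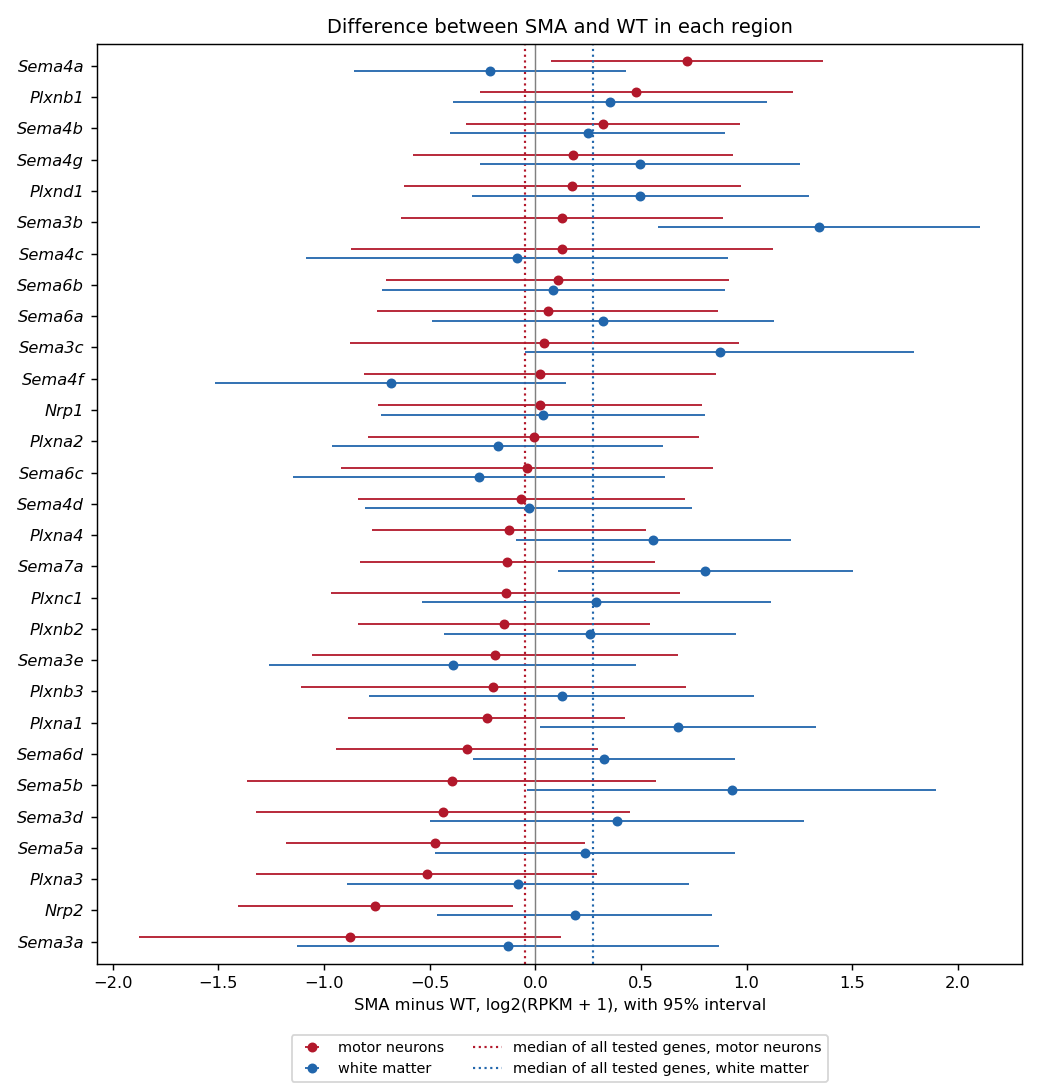
Each row is 1 of the 29 tested genes, ordered by the difference in motor neurons, and the x axis is SMA minus WT in log2(RPKM + 1). Points are limma estimates for motor neurons (red) and white matter (blue) with 95% intervals, and dotted lines are the medians of all tested genes, −0.05 in motor neurons and 0.27 in white matter. Most white matter points lie right of 0, as the median of all genes does.

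In motor neurons, both SMA libraries lay above both WT libraries for 3 family genes (Sema4a, Sema4b and Sema4g) and below for 6 (Nrp2, Plxna3, Sema3a, Sema3d, Sema3e and Sema5a), against 12.7% and 15.5% of all tested genes. Sema3e was separated only by 1.005 RPKM in the higher SMA library against 1.006 RPKM in the lower WT library. Sema3d was low, at 0.379 and 0.302 RPKM in SMA and 1.24 and 0.471 RPKM in WT motor neurons. Nrp2 was the receptor with the lowest unadjusted p, at 27.8 and 33.4 RPKM in SMA and 54.4 and 50.1 RPKM in WT motor neurons, a difference of −0.76 ± 0.29 (SE, unadjusted p = 0.0269). The same gene had 8.97 and 6.48 RPKM in SMA and 5.55 and 7.80 RPKM in WT white matter, where the libraries overlapped. Its difference between the regions was −0.94 ± 0.41 (unadjusted p = 0.0454). Sema3a had the lowest estimate, −0.88 ± 0.45 (unadjusted p = 0.0788), which rested on 1 library: it was −0.14 without the second SMA motor neuron library and −1.61 without the first (adjusted p = 0.0576). The summed motor neuron markers were 3013 to 3154 RPKM in SMA and 3574 to 4483 RPKM in WT motor neurons. Nefm and Nefl weighed most in that sum. Nefm had 1147 and 1135 RPKM in SMA and 1793 and 1410 RPKM in WT, and Nefl 1157 and 990 RPKM in SMA and 1517 and 1089 RPKM in WT. Of the 20 markers, 4 had a positive SMA minus WT estimate and 0 passed. The summed markers of microglia were 84.2 to 94.6 RPKM in SMA and 29.8 to 36.3 RPKM in WT motor neurons. The part of either list in these values was not tested.

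Sema4a, a transmembrane ligand known from immune cells and blood vessels, was the one family gene whose libraries separated in opposite directions. Of all tested genes, 12.7% had SMA above and 15.5% below in motor neurons, and 39.7% above and 4.17% below in white matter. The share that separated in opposite directions was not counted, so it is not known whether this is unusual. It had 20.2 and 15.1 RPKM in SMA and 9.51 and 11.0 RPKM in WT motor neurons, and 8.91 and 9.82 RPKM in SMA and 10.2 and 11.9 RPKM in WT white matter. The difference in motor neurons was 0.72 ± 0.29 (unadjusted p = 0.0325) and in white matter −0.21 ± 0.29 (unadjusted p = 0.473). Between the regions of 1 genotype it did not pass, at 0.84 ± 0.29 in SMA (adjusted p = 0.0517) and −0.095 ± 0.29 in WT (adjusted p = 0.840), although the SMA difference passed in 6 of 16 alternatives, down to an adjusted p of 0.0166. In motor neurons the summed markers of 5 of the 12 lists had both SMA libraries above both WT libraries, and 2 had them below. Above were endothelium (54.2 to 61.3 RPKM in SMA, 41.0 to 48.7 RPKM in WT) and spinal interneurons (250 to 376 RPKM, 216 to 219 RPKM). The others were microglia, oligodendrocyte precursors (121 to 145 RPKM, 104 to 118 RPKM) and myelinating oligodendrocytes (78.9 to 115 RPKM, 40.9 to 65.0 RPKM). The sums of endothelium and microglia were also higher in SMA in white matter, where Sema4a was lower. The part of any of these lists in the values of Sema4a was not tested.

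In white matter, both SMA libraries lay above both WT libraries for 10 of the 29 family genes and below for 2 (Sema4a and Sema4f), against 39.7% and 4.17% of all tested genes. Over all tested genes the median difference there was 0.27 on the deposited scale and 0.00 after median-of-ratios scaling, and the family's median was 0.25 on the deposited scale. On the log2(RPKM + 1) scale Sema3b differed most, with 6.56 and 6.49 RPKM in SMA and 2.16 and 1.79 RPKM in WT white matter. Its difference was 1.34 ± 0.34 (SE, unadjusted p = 0.00300), or 1.08 after median-of-ratios scaling. Sema7a had 4.55 and 2.67 RPKM in SMA and 1.89 and 1.30 RPKM in WT white matter, a difference of 0.81 ± 0.31 (unadjusted p = 0.0280), or 0.56 after that scaling. Plxna1 had 16.8 and 11.8 RPKM in SMA and 9.58 and 7.44 RPKM in WT white matter, a difference of 0.68 ± 0.29 (unadjusted p = 0.0437), or 0.37 after that scaling. In all 3 genes the SMA and WT libraries did not overlap, and none passed after adjustment. As a ratio of mean RPKM, SMA over WT, Sema3c (5.24-fold) and Sema4f (0.201-fold) differed more in white matter than Sema3b (3.31-fold). Their highest values there were low, 1.56 RPKM for Sema3c and 1.21 RPKM for Sema4f, and neither passed.

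Markers of other cell types were also set side by side in white matter. The sums are of RPKM on the deposited scale. For 9 of the 12 marker lists both SMA libraries had a higher sum than both WT libraries, and for 3 the ranges overlapped. On that scale 39.7% of all tested genes also had both SMA libraries above both WT libraries, and their median difference was 0.27. After median-of-ratios scaling that median was 0.00. The lists were not summed after that scaling, so whether the 9 would still separate was not tested. The overlapping lists were those of myelinating oligodendrocytes (2355 to 4630 RPKM in SMA, 1803 to 3711 RPKM in WT), red blood cells (1009 to 3728 RPKM in SMA, 598 to 1468 RPKM in WT) and proliferating cells (57.1 to 125 RPKM in SMA, 66.7 to 69.4 RPKM in WT). The summed fibroblast or meninges markers were 166 to 256 RPKM in SMA and 82.7 to 121 RPKM in WT white matter, and those of motor neurons, in which Sema7a and Plxna1 were higher, were 126 to 204 RPKM in SMA and 93.4 to 104 RPKM in WT white matter. Of the 20 motor neuron markers, 16 had a positive SMA minus WT estimate in white matter and 0 passed. Their median estimate was 0.31, against 0.27 over all tested genes. Chat had 0.905 and 0.00346 RPKM in SMA and 0.180 and 0.0589 RPKM in WT white matter. Mnx1 was listed at 0.0142 and 0 RPKM in SMA and 0.0711 and 0 RPKM in WT white matter. Slc18a3, another marker of the list, had 6.70 and 2.05 RPKM in SMA and 1.73 and 1.90 RPKM in WT white matter. Col1a1, a collagen gene of fibroblasts, had 59.7 and 34.0 RPKM in SMA and 16.4 and 19.0 RPKM in WT white matter. The summed markers of microglia were 372 to 431 RPKM in SMA and 271 to 284 RPKM in WT white matter, and those of endothelium 76.3 to 99.6 RPKM in SMA and 44.9 to 51.5 RPKM in WT white matter. Their part in the values of Sema3b, Sema7a and Plxna1 was not tested. Some members also share their locus with a gene on which the counting could have split or added reads: Nrp2 overlaps 4930487H11Rik, Nrp1 overlaps Mir1903, and Sema6d overlaps 4930517E11Rik and 4930583P06Rik. Others overlap an annotated gene with no row of that symbol in the tables, such as Sema3b with Lsmem2, Sema4a with Mir7011, Plxna1 with Gm40415 and Plxna4 with Plxna4os1. No source used here says whether strand was used, so reads of such pairs cannot be told apart.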

How the data were processed

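For each library the authors deposited RPKM values by gene symbol. The submitters' processing notes name TopHat, bedtools, DESeq and the mouse build mm9. No source used here gives their versions, the annotation, or how strand and multiply matching reads were handled. Per the labels' protocols, RNA was amplified with the NuGEN Ovation system, so read numbers are not molecule numbers.

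Group means were fitted to log2(RPKM + 1) over all 8 libraries with limma 3.58.1 in R 4.3.3 (eBayes with trend). A gene needed at least 1 RPKM in at least 2 libraries. The two-sided p-values of 7 contrasts were adjusted by Benjamini-Hochberg over 13948 genes, with a threshold of 0.05, and family genes were read from the full table. The fit and the read recovery were tested on simulated data. Whole reads were recovered from the RPKM steps for 17429 of 17431 genes (99.99%, within 0.02 of a read), including all 31 family genes, and voom on them was an alternative. Other alternatives changed the pseudocount (0.1 RPKM), the filter (none, or 5 RPKM), the scaling (median of ratios, quantile), the libraries fitted and the replicate block, and left out each library in turn. Family genes were named where called between regions or at an unadjusted p under 0.05 between genotypes, with all neuropilins and class A plexins. Up to 3 partner genes per list and direction were named by their p among those called in both genotypes. Members, the 5 partner lists and the 12 cell type lists were chosen with earlier results of these data known. Promoters were read from RefSeq and screened against GENCODE exons. Python 3.11.15, numpy 2.4.6, pandas 2.3.3 and matplotlib 3.10.9 were used.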

Additional observations from a re-analysis of the deposited data

Results flagged for a closer look

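Sema4a drew attention because both SMA libraries lay above both WT libraries in motor neurons and below both in white matter. The share of all tested genes that separated in opposite directions was not counted. The difference between the 2 contrasts was 0.93 ± 0.41 on the log2(RPKM + 1) scale (SE), with an unadjusted p of 0.0457 and an adjusted p of 0.883 in limma over all tested genes, so it did not pass. The estimate was 1.27 after median-of-ratios scaling and 0.73 to 1.13 over the fits that left out 1 library.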

How the results depend on the processing

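The number of family genes called between regions in WT (21) was 18 to 22 under the alternatives that kept all WT libraries, and 11, 10, 12 and 11 when WT motor neuron library 1 or 2 or WT white matter library 1 or 2 was left out, with a range of 10 to 22 over all libraries left out. In SMA (20) it was 15 with only the compared groups, 22 with either scaling or voom, and 14 to 21 over the libraries left out, and for both genotypes together (22) it was 21 to 23. Quantile normalization moved the WT split to 10 higher and 9 lower (over all genes 2238 higher of 4330 called, against 2593 of 3967). Median-of-ratios scaling gave 11 and 9 in WT and 13 and 9 in SMA. Between SMA and WT 0 family genes passed under every alternative tried, and without SMA motor neuron library 1 the smallest adjusted p of a family gene was 0.0576 in motor neurons. Over single genes, 75 values lost a call, 12 gained one and 12 changed sign, none of them a called value. The sign changes in WT were Plxnc1 (0.38) and Sema3d (0.16) without motor neuron library 2, Sema3d (0.059) without white matter library 1, and Sema4a without motor neuron library 1 (0.0036) or white matter library 2 (0.0060). Over all libraries left out Plxnc1 ran from −0.51 to 0.38, Sema3d from −0.45 to 0.16 and Sema4a from −0.20 to 0.0060. In SMA they were Sema3e with median-of-ratios scaling (0.019), quantile normalization (0.29), or without motor neuron library 1 (0.062) or white matter library 1 (0.31), Sema4c without white matter library 2 (0.072), and Sema5b without motor neuron library 2 (−0.29) or white matter library 2 (−0.034). Over all libraries left out Sema3e ran from −0.51 to 0.31, Sema4c from −1.03 to 0.072 and Sema5b from −0.29 to 0.88. The cause was not tested. With the replicate number as a block, 21 family genes were called in WT, 20 in SMA and 22 over both, and none between genotypes. The numbers share no stated animal, and same-numbered libraries of the groups compared deviated together with correlations of only 0.0123 to 0.0742, so the block does not pair samples. By Xist and Ddx3y the replicate number is also the sex of the library in every group, so this block adjusts for sex. A lone library left in a group was assumed to vary like the other groups. With 2 libraries a group, the intervals given in the report set what could be seen.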
